A study of Mus musculus with 9 samples.

Results

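Described here are 40 interferon-stimulated genes, among them 3 STAT and IRF factors that drive the others, read from an RNA-seq table of mouse splenic B cells. Each member was found by its gene symbol, and all 40 were present, each on 1 of the 24459 rows of the table. Of the 40, 38 had a mean of at least 0.5 FPKM (mapped fragments scaled to exon length and to library size) over the 9 libraries and entered the test, whereas Cxcl10 and Ifi44 lay under this minimum. The members span signalling factors, nucleic acid sensors, the OAS, IFIT, Mx and GBP families, and single effectors such as Rsad2 and Samhd1.

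BDL (IgD low), FO (IgD high) and marginal zone (MZ) B cells were sorted from the spleens of naive mice aged 8 to 10 weeks, with 5 mice pooled for each sort. FO and BDL shared the gate B220+ IgM int CD21 int CD23+ CD93- and were separated by IgD, whereas MZ B cells were B220+ IgM hi CD21 hi CD23- CD93-. The labels list no treatment, and the sample labels give the strain as C57/BL6 while the study's text names B10.PL for the sequenced cells. Each subset had 3 libraries from 3 dates, and libraries of 1 date carry the same replicate number. The main fit has no date term. Its p-values measure the spread between libraries of a subset, in which pool, date and sex of the pool change together.

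Interferons are secreted cytokines that signal through JAK kinases. Type I interferon activates a complex that includes STAT2 and IRF9 and binds the interferon-stimulated response element (ISRE), while interferon gamma acts largely through the gamma-activated site (GAS). The genes so induced encode sensors, nucleases and GTPases that restrict viruses and intracellular bacteria, and many are also expressed at a basal level in resting B cells.

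The identity of the sorted cells was checked first. All 8 MZ markers were higher in MZ than in FO B cells and the 3 FO markers measured were lower, and all 6 B cell markers were expressed, with a summed level of 3131 to 4608 FPKM. Of the 8 MZ markers, 6 were higher and 2 lower in BDL than in FO, and 4 passed as higher, 3 of them called. All 8 were lower in BDL than in MZ. Summed MZ markers were at 501 to 580 FPKM in FO, 806 to 907 in BDL and 2170 to 2672 in MZ, with no overlap. The 3 FO markers measured were lower in BDL than in FO, and 0 of them passed. Their sums were 1230 to 1328 FPKM in FO, 967 to 1220 in BDL and 309 to 382 in MZ. Of the 4 FO markers listed, 1 had no row. Summed FPKM of T cell markers was 1.95 to 3.16 in FO, 1.98 to 3.52 in BDL and 1.6 to 3.49 in MZ B cells, and that of myeloid markers was 7.72 to 15.8, 9.78 to 18.9 and 12.7 to 24.2. NK cell markers summed to 2.65 to 7.58 FPKM in FO, 2.43 to 6.22 in BDL and 6.88 to 12.5 in MZ, where Prf1 alone was called higher than in FO. Plasmacytoid dendritic cell markers summed to 10.4 to 11.2 in FO, 10.6 to 11.2 in BDL and 14.5 to 16.2 in MZ with no overlap, and Lair1 alone was called higher in MZ than in FO. Erythroid markers summed to 1.8 to 4.18 FPKM in FO, 7 to 8.04 in BDL and 3.06 to 5.5 in MZ, and plasma cell markers to 20.8 to 21.2, 25.8 to 27.7 and 24.5 to 28. BDL thus lay above FO in both of these sums with no overlap. Of the 4 plasma cell markers tested, 1 was called higher in BDL than in FO. Between BDL and MZ, 1 of them was called higher and 1 lower in BDL. Between MZ and FO, 1 was called higher and 1 lower in MZ. Of the 3 erythroid markers tested, 1 was called higher in BDL than in FO and 1 higher than in MZ. Of the 6 myeloid markers tested, 1 was called higher in BDL than in FO. Against MZ, 1 myeloid marker was called higher and 1 lower in BDL. Conventional dendritic cell markers summed to 1.17 to 2.16 FPKM over all libraries. The myeloid and NK cell sums were highest in replicate 2 of every subset, and no gene of the T cell, myeloid, NK cell, plasma cell and dendritic cell lists was at 0 in every library. The part of these cells in the differences below was not tested, and in bulk RNA fewer cells of a type and less RNA per cell cannot be told apart. The sex-linked genes followed the date. Xist was at 66.1 to 141 FPKM in replicate 1 of the 3 subsets and at 0.0513 to 0.104 in replicate 3, and the Y-linked Ddx3y was at 0.0165 to 0.0329 in replicate 1 and at 18.5 to 33.9 in replicate 3. Sex of the pools and date cannot be told apart, but each date supplied all 3 subsets. The column labels of all 3 FO libraries end in the letter G, and those of the BDL and MZ libraries do not. What the letter stands for is not known here, and it cannot be told apart from subset.

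The upstream sequences of 6 members are shown because these genes carry the largest differences or, for Cmpk2, lie beside one that does. They are the 250 bases before the RefSeq start on GRCm38.p6, read 5′ to 3′ on the strand of the gene, and capitals mark matches to the ISRE core (GAAA, any 2 bases, GAAA) on either strand.

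Isg15 (chr4:156200819-156201068, minus strand): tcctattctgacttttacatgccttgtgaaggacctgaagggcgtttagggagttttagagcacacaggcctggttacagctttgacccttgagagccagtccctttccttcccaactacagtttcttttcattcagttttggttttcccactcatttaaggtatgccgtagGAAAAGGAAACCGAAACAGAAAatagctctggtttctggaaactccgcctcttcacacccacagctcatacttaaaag

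Ifit3 (chr19:34583279-34583528, plus strand): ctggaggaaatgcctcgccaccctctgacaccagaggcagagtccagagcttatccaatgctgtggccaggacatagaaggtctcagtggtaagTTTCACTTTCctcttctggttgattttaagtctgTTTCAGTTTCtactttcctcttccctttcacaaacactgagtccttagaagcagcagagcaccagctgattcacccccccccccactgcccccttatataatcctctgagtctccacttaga

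Rsad2 (chr12:26456453-26456702, minus strand): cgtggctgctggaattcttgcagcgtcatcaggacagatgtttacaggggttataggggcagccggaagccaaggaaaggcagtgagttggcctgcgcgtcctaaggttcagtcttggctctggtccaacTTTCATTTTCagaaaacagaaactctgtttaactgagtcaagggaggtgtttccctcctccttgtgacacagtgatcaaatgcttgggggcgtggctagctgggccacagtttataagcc

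Cmpk2 (chr12:26468965-26469214, plus strand): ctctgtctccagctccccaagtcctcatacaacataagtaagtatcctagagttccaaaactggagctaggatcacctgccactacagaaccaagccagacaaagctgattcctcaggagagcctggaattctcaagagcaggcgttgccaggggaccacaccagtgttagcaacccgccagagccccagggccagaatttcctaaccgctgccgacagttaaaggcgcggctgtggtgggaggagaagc

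Gbp2 (chr3:142620413-142620662, plus strand): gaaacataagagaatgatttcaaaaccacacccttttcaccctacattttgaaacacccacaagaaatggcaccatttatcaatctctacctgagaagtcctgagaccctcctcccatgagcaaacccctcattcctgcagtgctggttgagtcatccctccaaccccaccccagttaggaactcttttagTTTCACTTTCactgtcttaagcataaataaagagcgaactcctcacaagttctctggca

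Samhd1 (chr2:157135097-157135346, minus strand): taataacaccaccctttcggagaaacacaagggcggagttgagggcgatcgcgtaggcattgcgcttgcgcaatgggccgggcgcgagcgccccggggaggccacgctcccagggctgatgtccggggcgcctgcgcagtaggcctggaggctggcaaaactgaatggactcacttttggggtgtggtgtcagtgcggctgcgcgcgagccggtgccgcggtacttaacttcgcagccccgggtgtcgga

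Isg15 held 3 overlapping matches to the ISRE core in this window, Ifit3 held 2, Rsad2 and Gbp2 held 1 each, and Cmpk2 and Samhd1 held 0. In the RefSeq table of windows from 250 bases before to 50 after the start, 30 of the 40 members were matched, and 18 of these (60%) held the ISRE core, against 3.99% of all 27025 genes. The GAS letters (TTC, any 3 bases, GAA, on either strand) occurred in 10 of the 30 (33.3%), against 9.55% of all genes, and Samhd1 held 1 such match. With only the bases before the start, 14 of the 30 members (46.7%) held the ISRE core and 7 (23.3%) the GAS letters, against 3.46% and 8.13% of all genes. A match describes letters in a window and is not a measured binding site.

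**Figure D1:**
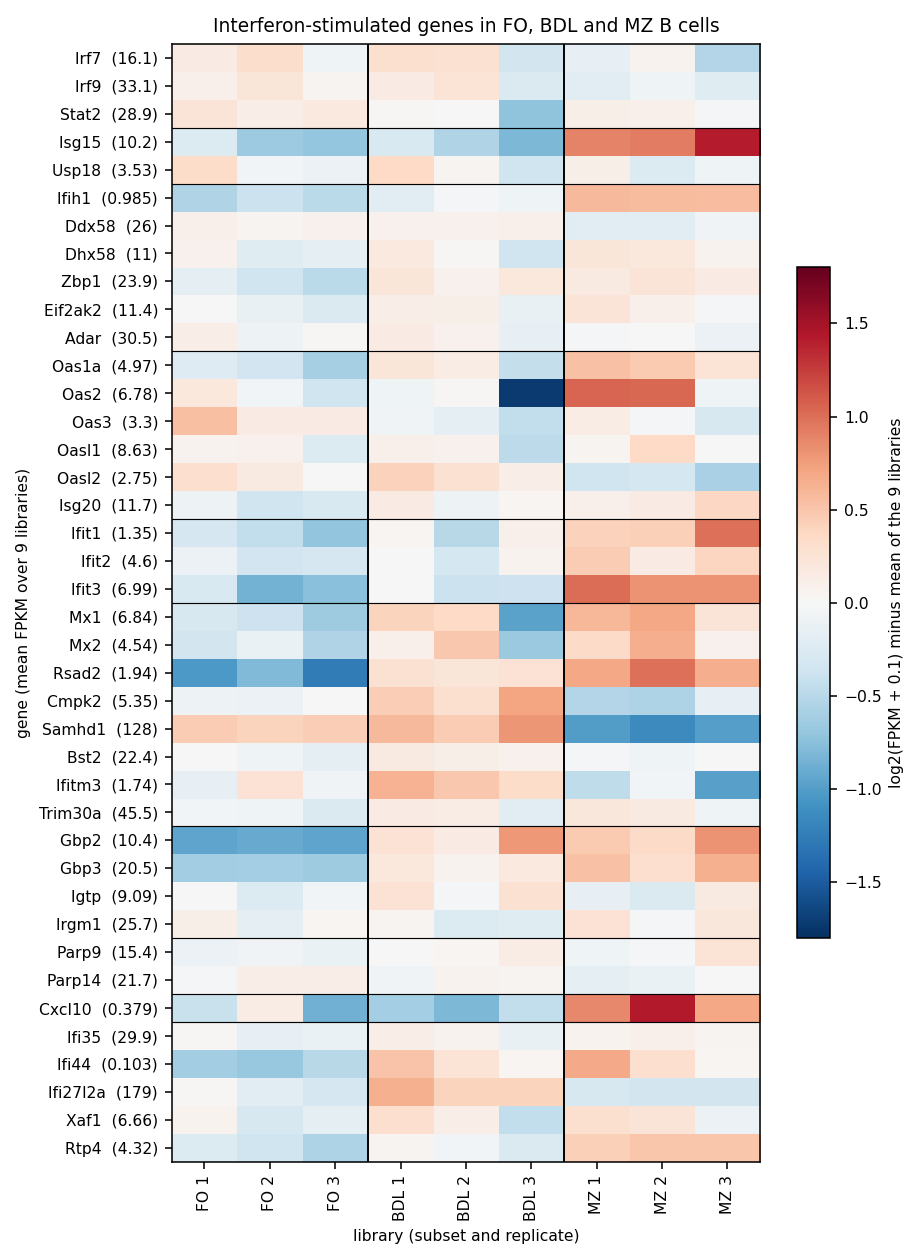
Level of the 40 members in each library, drawn as log2(FPKM + 0.1) minus the mean over the 9 libraries. Rows are genes grouped by role with the mean FPKM in brackets, and columns are the 3 libraries each of FO, BDL and MZ B cells. Isg15, Ifit3 and Rsad2 are high in the 3 MZ libraries, Samhd1 is low there, and Oas2 is lowest in BDL replicate 3.

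Levels of the members in these unstimulated cells spanned a wide range. Ifi27l2a and Samhd1 were the most abundant members, with means over the 9 libraries of 179 and 128 FPKM, followed by Trim30a at 45.5, Irf9 at 33.1 and Adar at 30.5. Ifi44 at 0.103 FPKM and Cxcl10 at 0.379 were the lowest. The 3 subsets were then compared pairwise. These 3 comparisons share libraries and are given side by side, not as independent evidence of each other. A member passed the test at a limma adjusted p under 0.05, and was called where it also differed by at least 2-fold. Folds and log2 differences are on the log2(FPKM + 0.1) scale, and each log2 difference is given ± the standard error of the fit, with n = 3 libraries in each subset.

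Between BDL and FO, 5 of the 38 members tested passed the test, and all 5 were higher in BDL. They were Gbp2, Rsad2, Gbp3, Ifi27l2a and Zbp1, and 2 of them, Gbp2 and Rsad2, were called. Over all 11597 rows tested, 6.04% passed as higher and 1.68% as lower in BDL, and 1.64% were called higher and 0.267% lower. The median difference over the members was 0.16 on the log2 scale, against 0.05 over all rows. In 11 members every BDL library lay above every FO library and in 2, Oas3 and Stat2, below, against 24.4% and 10.3% of all rows. With date as a block, 9 members passed, 8 higher and 1 lower, while 20.5% of all rows passed against 7.73% without the block. The count fell to 3 without FO replicate 2, FO replicate 3 or BDL replicate 1, each time through the loss of Ifi27l2a and Zbp1, and was 7 without BDL replicate 3.

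Between MZ and FO B cells, 15 members passed, of which 12 were higher and 3 lower in MZ. The 12 were Rsad2, Isg15, Ifit3, Gbp2, Gbp3, Ifit1, Ifih1, Rtp4, Oas1a, Ifit2, Zbp1 and Isg20, and the first 7 of these were called. The 3 lower ones were Samhd1, which was called, Oasl2 and Ddx58. Among all rows, 14.3% passed as higher and 12.8% as lower in MZ, and 5.54% were called higher and 3.39% lower. The median difference over the members was 0.19, against -0.01 over all rows. In 15 members every MZ library lay above every FO library and in 7 below, against 23.6% and 22.5% of all rows. Without FO replicate 3 the count was 11, through the loss of Ddx58, Ifit2, Isg20 and Oas1a, and it was 12 without MZ replicate 1. With quantile normalization the split was 12 higher and 6 lower in place of 12 and 3. With date as a block 22 members passed, and 38.8% of all rows did against 27.1% without it.

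Between BDL and MZ B cells, 14 members passed, 6 higher and 8 lower in BDL. Samhd1, Ifitm3, Cmpk2, Ifi27l2a, Oasl2 and Ddx58 were higher in BDL, and Isg15, Ifit3, Ifit1, Ifih1, Rtp4, Rsad2, Ifit2 and Gbp3 were lower. Samhd1 was called higher, and Isg15 and Ifit3 were called lower. Of all rows, 16.5% passed as higher and 11.6% as lower in BDL, and 3.47% were called higher and 4.34% lower. The median over the members was -0.15, against 0.06 over all rows. In 7 members every BDL library lay above every MZ library and in 9 below, against 22.6% and 16.4% of all rows. Without BDL replicate 1 the count was 8, and it was 9 without BDL replicate 2 or MZ replicate 1. Ddx58, Gbp3, Ifit1, Ifit2 and Rsad2 fell out in all 3 of these fits, and Ifitm3 without BDL replicate 1. The date block gave 19 members that passed, 8 higher and 11 lower in BDL, and 42.7% of all rows did against 28.1% without it.

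**Figure D2:**
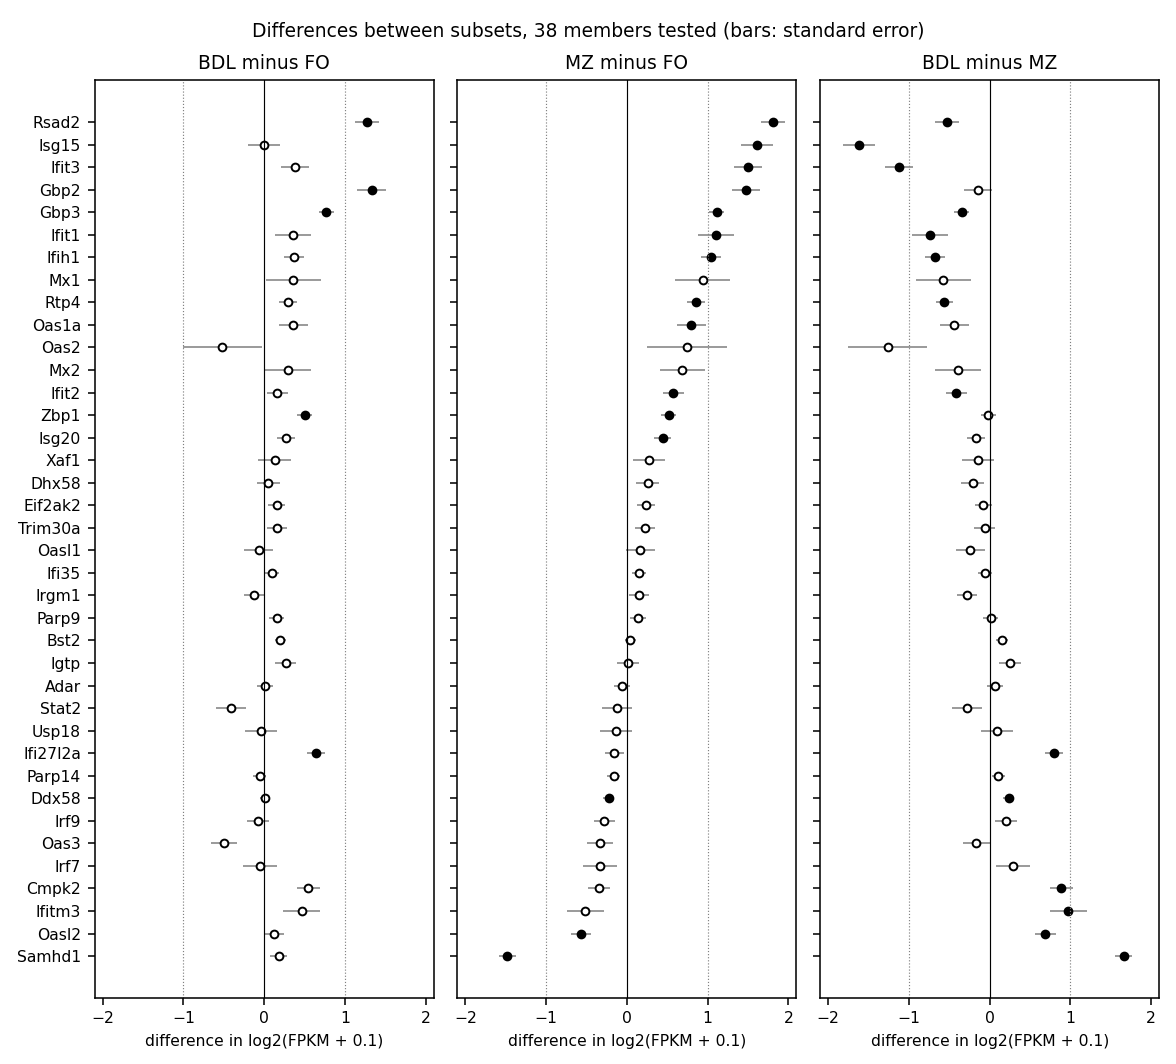
Difference in log2(FPKM + 0.1) between subsets for the 38 members tested, with bars of 1 standard error of the limma fit, n = 3 libraries a subset. Filled points passed at an adjusted p under 0.05, dotted lines mark a 2-fold difference, and genes are ordered by MZ minus FO. The filled points are 5 in BDL minus FO, 15 in MZ minus FO and 14 in BDL minus MZ.

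The signal transducers and IRF factors of the list did not pass in any comparison. Irf9, the DNA-binding subunit of the type I interferon complex, was at 35, 38.2 and 33.9 FPKM in FO, 36.4, 38.8 and 27.2 in BDL and 28.8, 31.1 and 28.2 in MZ B cells. Every MZ library was below every FO library, but the difference was -0.28 ± 0.13 on the log2 scale, adjusted p = 0.165. Irf9 passed as lower in MZ than in FO when the 6 compared libraries were fitted alone, and against both other subsets without BDL replicate 3. Stat2, its STAT partner, was at 33.5, 30.9 and 32.3 FPKM in FO, 29, 28.5 and 17.3 in BDL and 30.7, 30.3 and 27.7 in MZ B cells, with BDL replicate 3 far under all other libraries. Irf7, which amplifies type I interferon production, was at 17.6, 19.7 and 15 FPKM in FO, 19.4, 19.1 and 12.6 in BDL and 14.2, 16.5 and 10.9 in MZ B cells, and replicate 3 was the lowest library of each subset. With date as a block, Irf7 passed as lower in MZ than in both other subsets (adjusted p = 0.0217 against FO and 0.0337 against BDL).

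Isg15, a ubiquitin-like modifier (NCBIM37 chromosome 4, 155573533 to 155574927, minus strand), was high in MZ B cells. It was at 7.24, 5.42 and 5.3 FPKM in FO, 7.12, 5.91 and 4.87 in BDL and 16.1, 16.4 and 23.1 in MZ B cells. FO and BDL overlapped and every MZ library lay above both, 3.05-fold above FO (log2 difference 1.61 ± 0.20, adjusted p = 0.000521) and 3.06-fold above BDL (BDL minus MZ log2 difference -1.62 ± 0.20, adjusted p = 0.000571). The protease that removes ISG15 from its targets, Usp18, did not pass. It was at 4.4, 3.38 and 3.24 FPKM in FO, 4.49, 3.6 and 2.7 in BDL and 3.76, 2.91 and 3.29 in MZ B cells, all 3 subsets overlapped, and the MZ minus FO difference was -0.13 ± 0.20 on the log2 scale, adjusted p = 0.671.

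Of the 6 sensors of RNA and DNA, 1 passed as higher in BDL than in FO, 2 passed as higher and 1 as lower in MZ than in FO, and 1 passed each way between BDL and MZ. Ifih1 (NCBIM37 chromosome 2, 62433850 to 62484312, minus strand) encodes MDA5, a sensor of long double-stranded RNA. It was at 0.615, 0.689 and 0.642 FPKM in FO, 0.798, 0.92 and 0.881 in BDL and 1.46, 1.44 and 1.42 in MZ B cells. Its 3 subsets did not overlap, BDL lay between FO and MZ, and MZ exceeded FO by 2.06-fold (log2 difference 1.04 ± 0.13, adjusted p = 0.00046) and BDL by 1.6-fold (BDL minus MZ log2 difference -0.67 ± 0.13, adjusted p = 0.00505). The step from FO to BDL was 0.37 ± 0.13 on the log2 scale, adjusted p = 0.116, and did not pass.

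Zbp1, a sensor of Z-form nucleic acid, was at 20.9, 18.3 and 16.8 FPKM in FO, 27.4, 24.9 and 26.9 in BDL and 26.3, 27.7 and 26.2 in MZ B cells. BDL and MZ overlapped, and both lay above every FO library, by 1.42-fold in BDL (log2 difference 0.50 ± 0.09, adjusted p = 0.0169) and 1.43-fold in MZ (log2 difference 0.52 ± 0.09, adjusted p = 0.00377). Ddx58, which encodes RIG-I, ran the other way with a small difference. It was at 27.7, 26.9 and 27.3 FPKM in FO, 27.2, 27.4 and 27.7 in BDL and 22.4, 22.8 and 24.7 in MZ B cells, so that FO and BDL overlapped and MZ was lower, by 1.17-fold against FO (adjusted p = 0.035) and 1.18-fold against BDL (adjusted p = 0.0295). The other 3 sensors did not pass. Dhx58, a regulator of RIG-I and MDA5, was at 11.5, 9.39 and 9.67 FPKM in FO, 12.4, 11 and 8.5 in BDL and 12.7, 12.4 and 11.3 in MZ B cells. Eif2ak2, the kinase PKR, was at 11.3, 10.4 and 9.51 FPKM in FO, 12.3, 12.2 and 10.3 in BDL and 13.4, 12.2 and 11.2 in MZ B cells, and passed as higher in MZ than in FO with date as a block (adjusted p = 0.0149). Adar, the RNA-editing enzyme, was at 33.2, 28.6 and 30.9 FPKM in FO, 33.7, 32.1 and 27.5 in BDL and 30.0, 30.4 and 28.4 in MZ B cells, with all subsets overlapping.

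The OAS family, whose enzymes make the 2-5A signal that activates RNase L, passed in both directions, with Oas1a higher and Oasl2 lower in MZ than in FO. Oas1a was at 4.08, 3.77 and 3.15 FPKM in FO, 5.6, 5.28 and 3.53 in BDL and 6.94, 6.65 and 5.69 in MZ B cells. It was 1.74-fold higher in MZ than in FO (log2 difference 0.80 ± 0.18, adjusted p = 0.0131), with no overlap, and the BDL mean lay between. The MZ difference missed the threshold without FO replicate 3 or MZ replicate 1. The differences of BDL did not pass, but passed with date as a block (adjusted p = 0.0376 against FO and 0.0101 against MZ), and that against FO also without BDL replicate 3. Oasl2, an OAS-like protein, was at 3.33, 3.0 and 2.67 FPKM in FO, 3.62, 3.28 and 2.92 in BDL and 2.06, 2.15 and 1.76 in MZ B cells, and MZ lay below every library of the other subsets, 1.48-fold under FO (log2 difference -0.57 ± 0.13, adjusted p = 0.0114) and 1.61-fold under BDL (BDL minus MZ log2 difference 0.69 ± 0.13, adjusted p = 0.00462).

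Oas2 had the widest spread of any member in BDL and in MZ. It was at 6.8, 5.77 and 4.62 FPKM in FO, 5.66, 6.04 and 1.73 in BDL and 12.4, 12.3 and 5.66 in MZ B cells, and replicate 3 stood under the other libraries in both. BDL minus MZ was -1.26 ± 0.49 on the log2 scale, adjusted p = 0.0912, and with date as a block the adjusted p was 0.0092. Oas3 was at 4.75, 3.59 and 3.61 FPKM in FO, 3.11, 2.88 and 2.36 in BDL and 3.57, 3.19 and 2.63 in MZ B cells. Every BDL and MZ library lay under every FO library for Oas3, without passing (BDL minus FO log2 difference -0.50 ± 0.16, adjusted p = 0.105), and with date as a block both differences passed (adjusted p = 0.0126 for BDL and 0.0204 for MZ). Oasl1, a regulator of Irf7 translation, overlapped between all subsets at 8.94, 9.01 and 7.2 FPKM in FO, 9.1, 9.02 and 6.1 in BDL and 8.84, 10.9 and 8.55 in MZ B cells. The exonuclease gene Isg20 was at 10.9, 9.04 and 9.58 FPKM in FO, 12.9, 10.9 and 11.9 in BDL and 12.4, 12.8 and 15 in MZ B cells, 1.36-fold higher in MZ than in FO (log2 difference 0.44 ± 0.11, adjusted p = 0.0184), which missed the threshold without FO replicate 2 or FO replicate 3.

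All 3 members of the IFIT family passed as higher in MZ than in FO and as lower in BDL than in MZ. These genes lie near each other on chromosome 19 and encode proteins that bind foreign RNA. Ifit3 (NCBIM37 chromosome 19, 34658021 to 34663221, plus strand) was at 5.18, 3.43 and 3.67 FPKM in FO, 6.31, 4.79 and 4.81 in BDL and 12.7, 11 and 11 in MZ B cells. Each MZ library held more Ifit3 than any other library, 2.83-fold over FO (log2 difference 1.5 ± 0.17, adjusted p = 0.000345) and 2.17-fold over BDL (BDL minus MZ log2 difference -1.12 ± 0.17, adjusted p = 0.00192). FO and BDL overlapped, although with date as a block BDL exceeded FO (adjusted p = 0.0268).

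Ifit1 (NCBIM37 chromosome 19, 34715361 to 34724499, plus strand) was at 0.997, 0.897 and 0.734 FPKM in FO, 1.29, 0.861 and 1.34 in BDL and 1.72, 1.74 and 2.6 in MZ B cells. MZ was 2.14-fold above FO (log2 difference 1.10 ± 0.23, adjusted p = 0.00765), while BDL minus MZ was -0.74 ± 0.23 on the log2 scale, adjusted p = 0.0407. Ifit2 was at 4.2, 3.54 and 3.65 FPKM in FO, 4.49, 3.62 and 4.74 in BDL and 6.2, 5.02 and 5.94 in MZ B cells, 1.49-fold higher in MZ than in FO (log2 difference 0.58 ± 0.13, adjusted p = 0.0123) and lower in BDL than in MZ by a small margin (BDL minus MZ log2 difference -0.41 ± 0.13, adjusted p = 0.047). The BDL minus MZ differences of Ifit1 and Ifit2 each missed the threshold in 11 of 20 alternatives, and the MZ minus FO difference of Ifit2 without FO replicate 3 or MZ replicate 1. FO and BDL overlapped for all 3 IFIT genes.

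**Figure D3:**
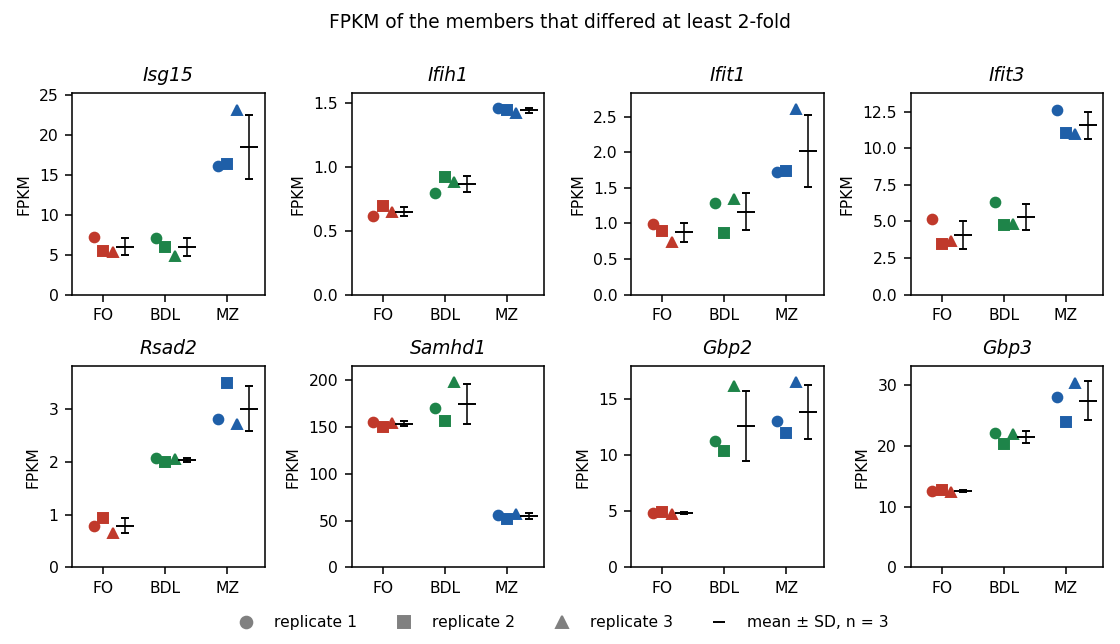
FPKM of the 8 members that were called in any comparison, by subset. Symbols are the 3 replicates and bars show the mean ± SD (n = 3). Isg15, Ifit1 and Ifit3 are high in MZ alone, Gbp2, Gbp3 and Rsad2 are lowest in FO, and Samhd1 is lowest in MZ at 51.3 to 57.3 FPKM.

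Among the 8 antiviral effectors, Rsad2 (NCBIM37 chromosome 12, 27127618 to 27141317, minus strand) differed in all 3 comparisons. Rsad2 encodes viperin, which makes a chain-terminating nucleotide. It was at 0.775, 0.939 and 0.65 FPKM in FO, 2.06, 1.99 and 2.05 in BDL and 2.81, 3.49 and 2.72 in MZ B cells. The subsets stood in the order FO, BDL, MZ with no overlap, and BDL was 2.42-fold above FO (log2 difference 1.28 ± 0.15, adjusted p = 0.00264), MZ 3.51-fold above FO (log2 difference 1.81 ± 0.15, adjusted p = 5.51e-05) and 1.45-fold above BDL (BDL minus MZ log2 difference -0.53 ± 0.15, adjusted p = 0.0295).

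Cmpk2, a mitochondrial nucleotide kinase gene that starts beside Rsad2 on the opposite strand with 12752 bp between the gene models, had another order. Cmpk2 was at 4.84, 4.78 and 5.13 FPKM in FO, 7.0, 6.28 and 8.5 in BDL and 3.55, 3.46 and 4.62 in MZ B cells. BDL was highest and MZ lowest with no overlap, 1.85-fold apart (log2 difference 0.89 ± 0.14, adjusted p = 0.0023). BDL minus FO was 0.54 ± 0.14 on the log2 scale, adjusted p = 0.055, just short of the threshold, and passed with date as a block (adjusted p = 0.0105). MZ minus FO was -0.35 and likewise passed with the block (adjusted p = 0.0193). Both differences from FO also passed without MZ replicate 3, and MZ minus FO with quantile normalization. Whether Rsad2 and Cmpk2 differed from each other in response to subset was not tested.

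Samhd1 (NCBIM37 chromosome 2, 156923265 to 156961001, minus strand), which encodes a dNTP hydrolase that restricts retroviruses, had the lowest adjusted p of the members in both comparisons with MZ. It was at 156, 150.2 and 155 FPKM in FO, 169.8, 156 and 198 in BDL and 56.2, 51.3 and 57.3 in MZ B cells. MZ B cells held 2.79-fold less than FO (log2 difference -1.48 ± 0.10, adjusted p = 2.34e-05) and 3.16-fold less than BDL (BDL minus MZ log2 difference 1.66 ± 0.10, adjusted p = 1.69e-05). Every BDL library lay above every FO library, replicate 2 by little, and that difference did not pass at 0.18 ± 0.10 on the log2 scale, adjusted p = 0.331.

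Ifitm3, a membrane protein that blocks viral entry, was low throughout at 1.48, 2.0 and 1.58 FPKM in FO, 2.6, 2.36 and 2.11 in BDL and 1.18, 1.59 and 0.788 in MZ B cells. Every BDL library was above every library of the other subsets, and BDL was 1.97-fold above MZ (log2 difference 0.98 ± 0.23, adjusted p = 0.0156) but did not pass against FO (log2 difference 0.46 ± 0.23, adjusted p = 0.265). Without BDL replicate 1 the difference from MZ missed the threshold (adjusted p = 0.0527). Bst2, which encodes tetherin, was also highest in the 3 BDL libraries, at 22.5, 21.2 and 19.9 FPKM in FO, 25.2, 24.1 and 23.7 in BDL and 21.8, 21.3 and 22.4 in MZ B cells. The steps were small, 0.20 over FO and 0.16 over MZ on the log2 scale, and did not pass.

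The dynamin-like GTPases Mx1 and Mx2, which lie 73176 bp apart on chromosome 16, were higher in every MZ than in every FO library without passing. Mx1 was at 5.21, 4.91 and 4.07 FPKM in FO, 8.42, 8.2 and 3.22 in BDL and 9.67, 10.4 and 7.5 in MZ B cells, with MZ minus FO log2 difference 0.94 ± 0.34, adjusted p = 0.0783. Mx2 was at 3.45, 3.97 and 2.96 FPKM in FO, 4.63, 6.12 and 2.7 in BDL and 5.52, 6.92 and 4.58 in MZ B cells, with MZ minus FO log2 difference 0.69 ± 0.28, adjusted p = 0.114. In BDL both were low in replicate 3 and high in the others. With date as a block both passed as higher in MZ than in FO (adjusted p = 0.0192 for Mx1 and 0.0118 for Mx2), and they also passed without BDL replicate 3. Trim30a, a regulator of Toll-like receptor signalling, was at 43.6, 43.1 and 37.9 FPKM in FO, 50.2, 49.9 and 39.6 in BDL and 52.4, 50.5 and 42.7 in MZ B cells, and passed as higher in MZ than in FO with the block alone (adjusted p = 0.0243).

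Of the 4 interferon-inducible GTPases, Gbp2 and Gbp3 passed and Igtp and Irgm1 did not. Gbp2 (NCBIM37 chromosome 3, 142283566 to 142300972, plus strand) and Gbp3 (chromosome 3, 142223016 to 142236173, plus strand) lie 47393 bp apart and encode guanylate-binding proteins that coat intracellular pathogens. Gbp2 was at 4.79, 4.96 and 4.78 FPKM in FO, 11.2, 10.4 and 16.1 in BDL and 13, 11.9 and 16.5 in MZ B cells. BDL and MZ overlapped and both exceeded every FO library, 2.52-fold in BDL (log2 difference 1.33 ± 0.18, adjusted p = 0.00436) and 2.78-fold in MZ (log2 difference 1.48 ± 0.18, adjusted p = 0.000428).

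Gbp3 was at 12.6, 12.7 and 12.5 FPKM in FO, 22.1, 20.3 and 22 in BDL and 28, 24 and 30.3 in MZ B cells. Its subsets did not overlap, and BDL lay 1.7-fold above FO (log2 difference 0.77 ± 0.09, adjusted p = 0.00318) and 1.27-fold below MZ (BDL minus MZ log2 difference -0.35 ± 0.09, adjusted p = 0.0267). MZ was 2.16-fold above FO (log2 difference 1.11 ± 0.09, adjusted p = 6.31e-05). Igtp was at 9.1, 7.62 and 8.7 FPKM in FO, 10.8, 8.9 and 10.9 in BDL and 8.15, 7.51 and 10.1 in MZ B cells. Irgm1 was at 27.6, 22.6 and 26.1 FPKM in FO, 26.5, 21.6 and 21.8 in BDL and 30.7, 24.9 and 29.4 in MZ B cells. Both are immunity-related GTPases of the phagosome, and neither passed. With date as a block Igtp passed as higher and Irgm1 as lower in BDL than in MZ (adjusted p = 0.045 and 0.0164), and Irgm1 also with upper quartile scaling or quantile normalization. Reads shared between near-identical copies could be split in the GBP, IRG, OAS, Mx and IFIT families, so that single members are uncertain there.

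Parp9 and Parp14, ADP-ribosyltransferase genes, did not pass in any comparison. Parp9 was between 14.1 and 18.2 FPKM and Parp14 between 19.4 and 23.5 over all 9 libraries. Ifi35 was between 26.9 and 32.5 FPKM, and its largest difference, MZ minus FO, was 0.15 ± 0.09 on the log2 scale, adjusted p = 0.249. Xaf1, which encodes a pro-apoptotic protein, was at 6.85, 5.36 and 5.78 FPKM in FO, 8.14, 7.12 and 4.81 in BDL and 8.07, 7.73 and 6.09 in MZ B cells, with replicate 3 lowest in BDL and MZ, and did not pass.

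Ifi27l2a, the most abundant member, encodes a small mitochondrial protein. It was at 176, 151 and 140.4 FPKM in FO, 270.4, 228 and 230.2 in BDL and 142, 138 and 138 in MZ B cells. Every BDL library exceeded every other library, 1.56-fold over FO (log2 difference 0.64 ± 0.11, adjusted p = 0.0139) and 1.74-fold over MZ (log2 difference 0.80 ± 0.11, adjusted p = 0.00127). It was the only member that passed as higher in BDL against both other subsets. Rtp4, a receptor-transporting protein gene, was at 3.52, 3.23 and 2.82 FPKM in FO, 4.31, 4.01 and 3.49 in BDL and 5.65, 5.92 and 5.94 in MZ B cells. MZ stood above both subsets, 1.81-fold over FO (log2 difference 0.86 ± 0.11, adjusted p = 0.000622) and 1.47-fold over BDL (BDL minus MZ log2 difference -0.56 ± 0.11, adjusted p = 0.00612).

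The 2 members under the minimum were low in all 3 subsets. Cxcl10, the chemokine that attracts CXCR3+ cells, was at 0.212, 0.35 and 0.125 FPKM in FO, 0.169, 0.134 and 0.203 in BDL and 0.651, 1.0 and 0.566 in MZ B cells. FO and BDL overlapped and every MZ library lay above both. Ifi44 was at 0.0247, 0.0198 and 0.0364 FPKM in FO, 0.176, 0.129 and 0.0968 in BDL and 0.209, 0.138 and 0.097 in MZ B cells, and every FO library lay under every other library. From the steps between low values, the FO levels of Ifi44 correspond to about 4.6 to 8.8 fragments a library. With no minimum, Cxcl10 passed as higher in MZ than in FO and BDL, and Ifi44 as higher in BDL and MZ than in FO.

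**Figure D4:**
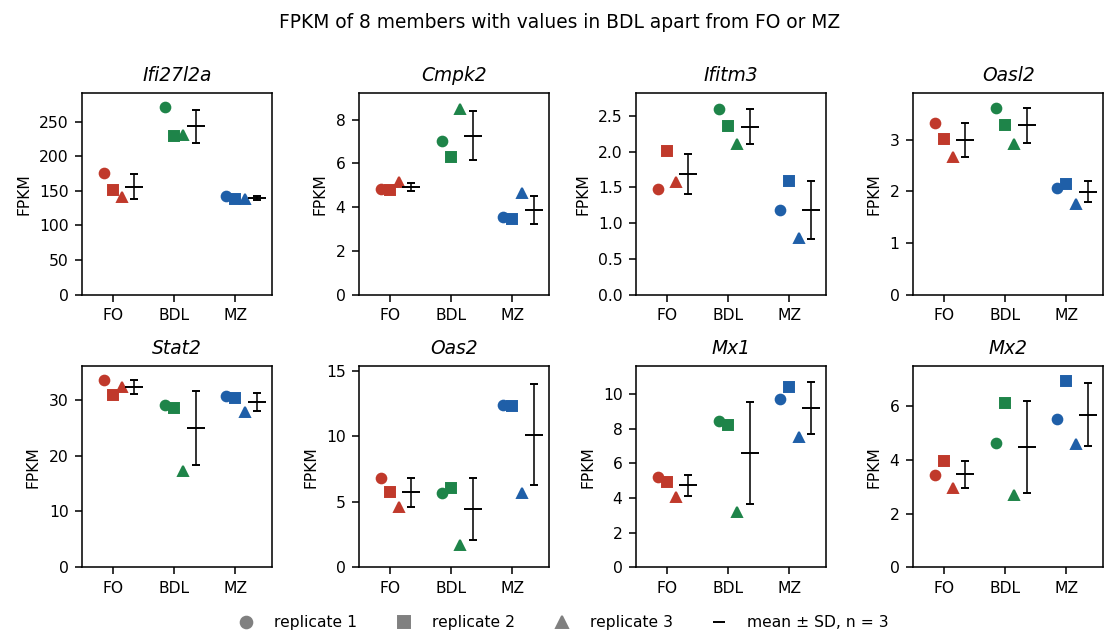
FPKM of 8 members for which BDL stood apart from FO or MZ B cells, or whose BDL libraries differed widely. Symbols are the 3 replicates and bars show the mean ± SD (n = 3). Ifi27l2a is highest in the 3 BDL libraries, at 228 to 270 FPKM, and Stat2, Oas2, Mx1 and Mx2 are low in BDL replicate 3.

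Within each subset the members also varied by date. Replicate 3 was below the mean of replicates 1 and 2 for 30 of the 38 members in FO, 24 in BDL and 23 in MZ, against 35.8%, 47.8% and 35.3% of all rows. The median of replicate 3 minus that mean was -0.12 in FO, -0.22 in BDL and -0.04 in MZ on the log2 scale for the members, against 0.04, 0.02 and 0.12 for all rows. The drop in BDL replicate 3 was largest for Oas2, at -1.70, followed by Mx1 at -1.34, Mx2 at -0.95 and Stat2 at -0.73. Gbp2, Cmpk2, Ifit1 and Samhd1 were instead higher in BDL replicate 3 than in the other BDL libraries. The part of date, sex of the pool or library in these values was not tested.

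**Figure D5:**
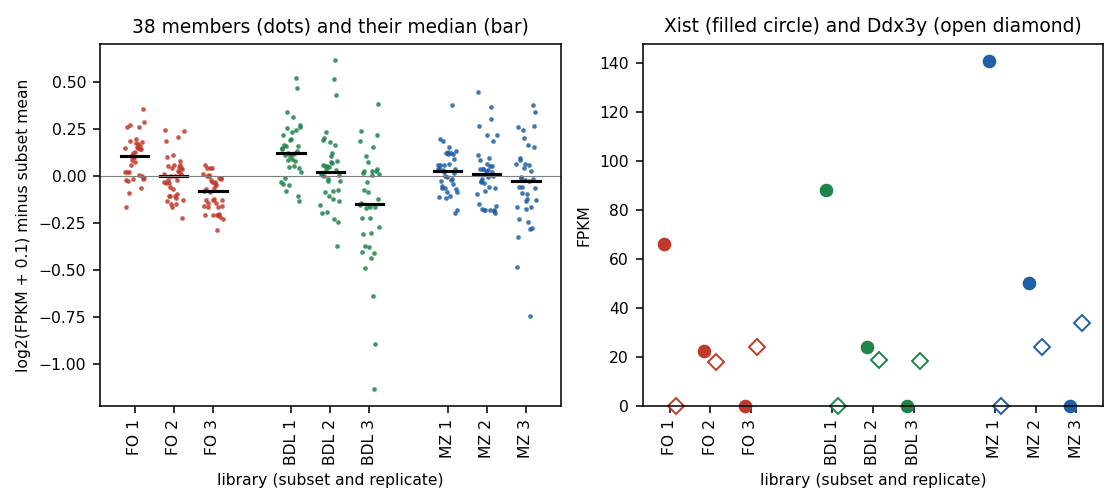
Left, log2(FPKM + 0.1) minus the subset mean for the 38 members tested in each library, with a bar at the median of the members. Right, FPKM of Xist (filled circles) and the Y-linked Ddx3y (open diamonds) in the same libraries. The members spread furthest downward in BDL replicate 3. Xist is near 0 in replicate 3 of each subset and Ddx3y is near 0 in replicate 1.

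The promoter windows were set beside these results. The ISRE core was present in 8 of the 10 matched members that were higher in MZ than in FO, in 1 of the 3 that were lower in MZ than in FO, and in 6 of the 7 that were lower in BDL than in MZ. It was present in 3 of the 3 matched members higher in BDL than in FO, in 2 of 5 higher in BDL than in MZ, and in 7 of the 13 matched members that passed in no comparison. These are counts of letters near the start, with no test.

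The rest of the pathway was read from a list of 124 further genes, of which 118 were in the table and 102 were tested. In BDL against FO, 2 passed as higher and 2 as lower, or 3.92% of those tested, against 7.73% of all rows. In MZ against FO 16 passed as higher and 22 as lower, or 37.3% in all against 27.1% of all rows. In BDL against MZ 20 passed as higher and 13 as lower, and the total of 32.4% lay near the 28.1% of all rows. Their median difference on the log2 scale was 0.01 in BDL minus FO, -0.16 in MZ minus FO and 0.09 in BDL minus MZ, against 0.05, -0.01 and 0.06 over all rows.

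Among the receptors, kinases and STAT factors, Ifnar1, Jak1 and Stat3 passed as lower in MZ than in both other subsets. Ifnar1, a chain of the type I interferon receptor, was at 23.4, 19.9 and 24.6 FPKM in FO, 24.2, 22.9 and 20.7 in BDL and 14.7, 13.6 and 13.1 in MZ B cells, with MZ minus FO log2 difference -0.70 ± 0.10, adjusted p = 0.00135. Jak1, the kinase shared by all interferon receptors, was at 111, 125 and 122 FPKM in FO, 101, 108 and 147 in BDL and 61.8, 66.3 and 82.2 in MZ B cells, with MZ minus FO log2 difference -0.77 ± 0.16, adjusted p = 0.00892. Stat3 was at 37.3, 37.8 and 38.6 FPKM in FO, 35, 35.8 and 36 in BDL and 27.2, 31.1 and 29.5 in MZ B cells, with MZ minus FO log2 difference -0.37 ± 0.07, adjusted p = 0.00561. Every MZ library was under every FO and BDL library for Ifnar1, Jak1 and Stat3, while Isg15, Ifit3 and Rsad2 were highest in those MZ libraries. Ifnar2, Ifngr1, Ifngr2, Il10rb, Jak2 and Tyk2 did not pass, and Ifnlr1 was under the minimum.

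Of the other IRF factors, Irf1, Irf2 and Irf8 were lower in MZ than in both other subsets. Irf2, known to repress interferon responses, was at 67.2, 69.2 and 67.8 FPKM in FO, 67, 68.3 and 90.6 in BDL and 34, 38.4 and 43.2 in MZ B cells, with MZ minus FO log2 difference -0.83 ± 0.14, adjusted p = 0.00249. Irf1, an activator of the same elements, was at 60.8, 79.5 and 72.4 FPKM in FO, 52.3, 64.1 and 50.2 in BDL and 33.9, 39.9 and 39.7 in MZ B cells, with MZ minus FO log2 difference -0.90 ± 0.14, adjusted p = 0.00168. Irf8, a factor of B cell development, was at 142, 149 and 151 FPKM in FO, 137, 139 and 158 in BDL and 77.2, 90.4 and 99.6 in MZ B cells, with MZ minus FO log2 difference -0.73 ± 0.11, adjusted p = 0.00174. Irf4 was lower in BDL than in MZ at 165, 202 and 169 FPKM in FO, 129, 180.1 and 101 in BDL and 199.8, 270.0 and 219 in MZ B cells (BDL minus MZ log2 difference -0.78 ± 0.21, adjusted p = 0.028). The corepressor gene Irf2bp2 rose from FO to BDL to MZ with no overlap, at 24, 26.3 and 22.7 FPKM in FO, 38.9, 42.4 and 31.1 in BDL and 64.5, 72.8 and 66.1 in MZ B cells. It was called higher in MZ than in FO (2.78-fold, log2 difference 1.48 ± 0.12, adjusted p = 6.31e-05). The other 2 comparisons passed without being called (BDL minus FO log2 difference 0.61 ± 0.12, adjusted p = 0.0243, and BDL minus MZ -0.87 ± 0.12, adjusted p = 0.00141). Irf3, Irf5 and Irf2bp1 did not pass.

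Interferon genes themselves were at or near 0. Ifnb1, Ifna2, Ifna4, Ifna5, Ifne, Ifnl2 and Ifnl3 were listed at 0 in all 9 libraries, and Ifna1 and Ifnk did not exceed 0.223 FPKM. Ifng was at 0.395, 0.575 and 0.493 FPKM in FO, 0.654, 0.991 and 0.96 in BDL and 0.137, 0.279 and 0.14 in MZ B cells, lower in MZ than in FO (log2 difference -1.07 ± 0.28, adjusted p = 0.0238) and higher in BDL than in MZ (log2 difference 1.78 ± 0.28, adjusted p = 0.00223). At under 1 FPKM this is a low level. Summed NK cell markers were at 6.88 to 12.5 FPKM in MZ and 2.43 to 7.58 in FO and BDL. Of the NK cell markers tested, Prf1 was higher in MZ than in both other subsets. Nkg7 and Gzma were lower in MZ, as Ifng was, without passing in either comparison. Their log2 differences were -0.57 and -0.33 in MZ minus FO, and 0.29 and 0.54 in BDL minus MZ, not listed by gene. The part of NK or T cells in the Ifng values was not tested.

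The remaining pathway genes that were called in any comparison were 10 in number. Gbp7 and Gbp8, further guanylate-binding proteins, followed Gbp3 in being highest in MZ. Gbp7 was at 3.49, 3.19 and 3.22 FPKM in FO, 4.81, 4.21 and 4.17 in BDL and 10.6, 9.29 and 10.6 in MZ B cells (MZ minus FO log2 difference 1.59 ± 0.09, adjusted p = 8.45e-06), and Gbp8 was at 2.33, 2.22 and 2.17 FPKM in FO, 2.35, 2.6 and 1.24 in BDL and 8.06, 8.25 and 5.79 in MZ B cells (MZ minus FO log2 difference 1.66 ± 0.26, adjusted p = 0.00192). Lgals3bp, a secreted glycoprotein gene, was at 7.32, 6.03 and 4.85 FPKM in FO, 10.2, 9.45 and 7.57 in BDL and 18, 18.9 and 20.4 in MZ B cells (MZ minus FO log2 difference 1.66 ± 0.16, adjusted p = 0.000146), and Ikbke, a kinase upstream of IRF3 and IRF7, at 6.23, 5.16 and 5.34 FPKM in FO, 4.94, 4.45 and 1.89 in BDL and 16, 15.3 and 10.5 in MZ B cells (MZ minus FO log2 difference 1.29 ± 0.34, adjusted p = 0.0229). Each of these 4 was called as higher in MZ than in both other subsets.

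Slfn2, Ms4a4b and Ms4a4c were called as lower in MZ than in both. Slfn2, a regulator of lymphocyte quiescence, was at 54.3, 34.7 and 49.7 FPKM in FO, 60.6, 46.1 and 82.4 in BDL and 22.8, 11.5 and 28.5 in MZ B cells (MZ minus FO log2 difference -1.21 ± 0.36, adjusted p = 0.0365). Ms4a4c was at 65.5, 64.9 and 65.3 FPKM in FO, 72.6, 63.5 and 89.3 in BDL and 29, 23.7 and 27.7 in MZ B cells (MZ minus FO log2 difference -1.28 ± 0.13, adjusted p = 0.000188) and Ms4a4b at 5.93, 7.4 and 5.69 FPKM in FO, 6.65, 6.51 and 9.07 in BDL and 2.52, 2.87 and 2.11 in MZ B cells (MZ minus FO log2 difference -1.31 ± 0.17, adjusted p = 0.000733). Ifitm2, a close relative of Ifitm3, was at 0.656, 0.994 and 0.585 FPKM in FO, 1.25, 1.6 and 0.953 in BDL and 0.446, 0.783 and 0.248 in MZ B cells and was higher in BDL than in MZ (log2 difference 1.28 ± 0.36, adjusted p = 0.0306). Ifitm2 and Ifitm3 thus both passed in this direction, as similar copies that could share reads.

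The cytokine signalling inhibitors Socs3 and Cish differed between subsets and between dates. Socs3 was at 14.2, 23.3 and 18.8 FPKM in FO, 6.37, 9.4 and 7.28 in BDL and 7.49, 13.1 and 10.4 in MZ B cells, and every BDL library lay below every FO library (2.41-fold, log2 difference -1.27 ± 0.25, adjusted p = 0.022). It was the only one of the 102 to be called between BDL and FO, and was not called without FO replicate 3, BDL replicate 1 or BDL replicate 3. Socs3 also passed as lower in MZ than in FO (log2 difference -0.86 ± 0.25, adjusted p = 0.0351), with no overlap. BDL and MZ overlapped for Socs3 and did not pass (BDL minus MZ log2 difference -0.40 ± 0.25, adjusted p = 0.273). Cish was at 0.413, 1.56 and 0.44 FPKM in FO, 0.533, 1.42 and 0.406 in BDL and 3.69, 7.85 and 4.32 in MZ B cells, called as higher in MZ than in FO (log2 difference 2.73 ± 0.57, adjusted p = 0.00855), and replicate 2 was the highest library of each subset. The type I interferon inhibitor Socs1 did not pass.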

How the data were processed

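RNA-seq was analysed for 9 libraries, 3 each of FO, BDL and MZ B cells. Reads were mapped by the authors to build mm9 using TopHat2 2.1.0, with the searches for junctions outside the annotation and by coverage turned off. They computed FPKM with Cufflinks, and deposited 1 FPKM per gene and library. The Cufflinks version and the annotation are not given in the sources used here. The labels describe single-end reads without strand, whereas the study's methods name a stranded kit, so that overlapping antisense genes are uncertain. A deposited table of the authors' own Cuffdiff comparisons (fold changes and p-values) was not used. Sums were 446033 to 517208 FPKM a library.

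The table holds no counts. From the steps between low values, 1 fragment on a transcript of 1 kb was worth 0.0137 to 0.0186 FPKM, and depth relative to FO replicate 1 was 0.898 to 1.22. Between 70.3% and 80.2% of the values used lay within 0.1 of a whole fragment number. A step fixed beforehand would give 20% by chance. The step was fitted to these same values, so that 20% is too low a reference. Fragment numbers are approximate.

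Values were put on the log2(FPKM + 0.1) scale and fitted by limma 3.58.1 under R 4.3.3, using lmFit, contrasts and a trended eBayes, over the 11597 rows whose mean reached 0.5 FPKM. The fit held all 9 libraries and no term but subset. Benjamini-Hochberg adjustment ran over all rows tested. Calls needed an adjusted p below 0.05 together with a 2-fold difference. A two-sided exact permutation test of 3 libraries against 3 cannot give a p under 0.1, which is its value wherever groups did not overlap. On simulated data for BDL against FO over 11597 rows, 88% of 200 genes changed by 1.5 (log2) were called, with 5 false calls. The largest member difference in this comparison was 1.33, so this share does not apply to differences of the sizes seen in the members.

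The titles give the date of each library, so that dates pair the libraries across subsets. Deviations from the subset mean correlated between libraries of 1 date at -0.06 to 0.15 for BDL and FO, 0.10 to 0.24 for BDL and MZ, and 0.01 to 0.02 for MZ and FO. The study names no such term, and date was tried as a block. Every member was named, with values in each library for those that passed in any comparison and for the 5 most abundant. Of other pathway genes, the receptors, kinases, STATs and IRF factors were named, with those called, and some genes of the lists are not reported here one by one. Members and lists were chosen with earlier results of these data known. Gene positions came from GENCODE M1 on NCBIM37 and promoter windows from RefSeq on GRCm38.p6. Python 3.11.15 with matplotlib 3.10.9 drew the figures.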

Additional observations from a re-analysis of the deposited data

How the results depend on the processing

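Of the 34 member differences that passed the test, 21 passed under every alternative in which they were tested, 13 missed the threshold under at least 1, and 0 changed sign. The alternatives changed the value added (0.01 or 1), the minimum (1 FPKM or no minimum), the libraries fitted (the 6 compared, or each left out in turn), the scaling (upper quartile or quantile), the eBayes setting (robust, or no trend) and the handling of repeated symbols (summed), or took date as a replicate block. The block, the eBayes settings and the fit of the 6 compared libraries cannot change a difference, only its test, so that no sign could change there. The differences lost most often were those of Ddx58 in both comparisons with MZ (9 of 20 alternatives each) and of Ifit1 and Ifit2 between BDL and MZ (11 of 20 each). Gbp3 and Rsad2 between BDL and MZ were lost in 6 of 20 each. Ifih1 lay under the minimum of 1 FPKM and was not tested there.

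With an adjusted p and no fold minimum, members called numbered 5 higher in BDL than in FO, 6 higher and 8 lower in BDL than in MZ, and 12 higher and 3 lower in MZ relative to FO, and other pathway genes 2 and 2, 20 and 13, and 16 and 22. With 1 added, 1 member was called higher in BDL than in FO and 3 other pathway genes higher in BDL than in MZ. With a minimum of 1 FPKM the latter was also 3. With 0.01 added or quantile normalization, 2 members were called higher in BDL than in MZ. The median member difference of BDL minus FO was 0.087 with upper quartile scaling and 0.11 with quantile normalization, where the median over all rows moved too, from 0.048 to -0.024 and -0.00077. The cause of the shifts was not tested.

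Leaving out 1 library gave 1 to 2 members called higher in BDL than in MZ, 0 to 1 other pathway genes called lower in BDL than in FO, and 2 to 6 lower in MZ than in FO. The median member difference ranged from 0.13 to 0.22 for BDL minus FO, from -0.18 to -0.035 for BDL minus MZ and from 0.17 to 0.26 for MZ minus FO. The smallest size in BDL minus MZ came without BDL replicate 3.

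With date as a replicate block, 2 members were called higher in BDL than in FO, 1 higher and 3 lower in BDL than in MZ, and 7 higher and 1 lower in MZ relative to FO. Each date supplied every subset once, so that the block cannot change a difference, and the medians stayed at 0.16, -0.15 and 0.19 by design. Only the tests could change, and no member that passed without the pairing was lost with it. Ifi44 and Cxcl10 lay under the minimum used and were tested with no minimum.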

Other observations

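Several further interferon-induced genes outside the 40 members shared the low values of replicate 3 seen for Oas2, and were chosen here after their values were seen. Mndal, a gene of the Ifi200 family of DNA-binding proteins, was at 187, 205 and 183 FPKM in FO, 176, 175 and 86.9 in BDL and 189, 213 and 91.3 in MZ B cells. FO replicate 3 lay close to the other FO libraries, while replicate 3 of BDL and of MZ lay far below their partners. Mnda was at 16.5, 16.9 and 16.2 FPKM in FO, 15.6, 14.3 and 6.08 in BDL and 15.1, 17.4 and 6.63 in MZ B cells. Ifi205 was at 14.5, 14.9 and 14.2 FPKM in FO, 13.7, 12.7 and 5.52 in BDL and 13.3, 15.2 and 5.67 in MZ B cells. Ifi204 was at 8.1, 7.69 and 7.88 FPKM in FO, 7.71, 7.37 and 2.72 in BDL and 7.74, 9.11 and 3.61 in MZ B cells, and all 3 had the same low libraries. These 4 genes are related copies and are not separate measurements. Uba7, which encodes the enzyme that activates ISG15 for conjugation, was at 68.4, 57.9 and 65 FPKM in FO, 59.7, 59.7 and 21.9 in BDL and 63.8, 67.3 and 40.3 in MZ B cells, again with the lowest values in BDL replicate 3 and MZ replicate 3.

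Isg15 did not share this pattern, and MZ replicate 3 was its highest library. Mndal, Mnda, Ifi205, Ifi204 and Uba7 did not pass the limma test in any of the 3 comparisons of subsets.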
